A study of Mus musculus with 15 samples.

Results

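The 9 genes described here make up the core of the cellular oxygen-sensing pathway: the hypoxia-inducible factor (HIF) subunits Hif1a and Arnt, the ubiquitin ligase component Vhl, the prolyl hydroxylases Egln1, Egln2 and Egln3, the asparaginyl hydroxylase Hif1an, and the HIF target genes Bnip3 and Bnip3l. They were taken by gene symbol from the deposited expression table, which lists 21761 genes. All 9 were found, and all 9 passed the filter of at least 1 RPKM (reads per kilobase of gene length, scaled to the assigned reads of each library) in at least 3 libraries, as did 10866 genes in all.

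HIF is a transcription factor made of an oxygen-labile alpha subunit, such as HIF1A, and a stable partner, ARNT. In oxygen, the prolyl hydroxylases encoded by the Egln genes modify the alpha subunit, VHL then recognises it, and it is degraded, while the asparaginyl hydroxylase encoded by Hif1an blocks its contact with coactivators. These hydroxylases use oxygen, iron and 2-oxoglutarate, and the histone demethylases KDM6A and KDM6B belong to the same enzyme class. The pathway is controlled to a large part at the level of protein, which RNA does not measure. Egln1, Egln3, Bnip3 and Bnip3l are known as HIF targets, and the latter pair encode receptors on the outer mitochondrial membrane that mark mitochondria for removal by autophagy.

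The study compared B cells that had been exposed to GSK-J4, an inhibitor of KDM6A and KDM6B, with cells exposed to its solvent DMSO. B cells without surface CD43 came from wild-type female C57BL/6J mice, whose age the labels do not give. They were cultured ex vivo for 3 days with LPS, IL-2 and IL-5 plus either DMSO or 250 nM GSK-J4, and then enriched magnetically for GL7+ cells or for CD138+ cells. GL7 marks activated B cells and CD138 marks plasmablasts. The fifth group held unstimulated naive B cells of the same strain and sex, which received neither drug nor solvent. Each of the 5 groups had 3 libraries of poly(A) RNA, 15 in all, and each library came from 1 mouse. By the labels, mice 1, 2 and 3 gave every group. One CD138+ GSK-J4 library is numbered 4 in the table and has no mouse that could be matched in the labels. No library carries the number of the CD138+ GSK-J4 sample of mouse 3. Whether the library numbered 4 is that sample is not given. Enrichment on magnets leaves other cells behind, and in bulk RNA fewer cells of a type and less RNA per cell cannot be told apart.

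Depth, recovered from the step that 1 read adds to an RPKM value, ran from 1318001 reads (naive replicate 2) to 13189906 (naive replicate 1). The CD138+ GSK-J4 libraries held 6241108 to 7712218 reads, and the CD138+ DMSO libraries 9677006 to 11635922. Summed RPKM of 6 erythroid markers was 205 to 228 in naive libraries and at most 9.72 in cultured ones, and that of 7 myeloid markers was 58.7 to 95.5 against at most 4.32. The 6 plasmablast markers summed to 403 to 449 RPKM in naive, 1167 to 1303 in GL7+ DMSO and 4495 to 4736 in CD138+ DMSO libraries, so the CD138+ libraries carried the markers of their label.

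Most of the 9 genes differed between cultured and naive cells: 7 of 9 in GL7+ DMSO cells, where 81.7% of all genes tested did, and 8 of 9 in CD138+ DMSO cells, where 83.4% did. In GL7+ DMSO cells against naive cells, 4 of 9 were higher (Egln1, Egln3, Bnip3 and Bnip3l), where 41.3% of all genes tested were higher, and 3 of 9 were lower (Hif1a, Egln2 and Hif1an), where 40.3% were lower. In CD138+ DMSO cells against naive cells the same 4 genes were higher and 4 of 9 were lower (Hif1a, Vhl, Egln2 and Hif1an), against 39.9% and 43.5% of all genes. Egln3 and Bnip3 rose most: Egln3 from 0, 2 and 4 reads in the naive libraries to between 257 and 484 reads in GL7+ DMSO libraries, and Bnip3 by 12.9-fold in its group mean. These calls, like all calls given below, are from limma on log2(RPKM + 1) with Benjamini-Hochberg adjustment over all genes tested, and a gene is said to have risen or fallen only where the adjusted p was under 0.05. All 15 calls against naive cells kept their side of the threshold in each of the 21 alternatives run. Egln3 passed the filter on low values through the cultured libraries alone, so its calls against naive cells are counted but lend no support. Naive and cultured cells differ in stimulation, culture, enrichment, depth and residual erythroid and myeloid RNA together. The part of each in these results was not tested.

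**Figure D1:**
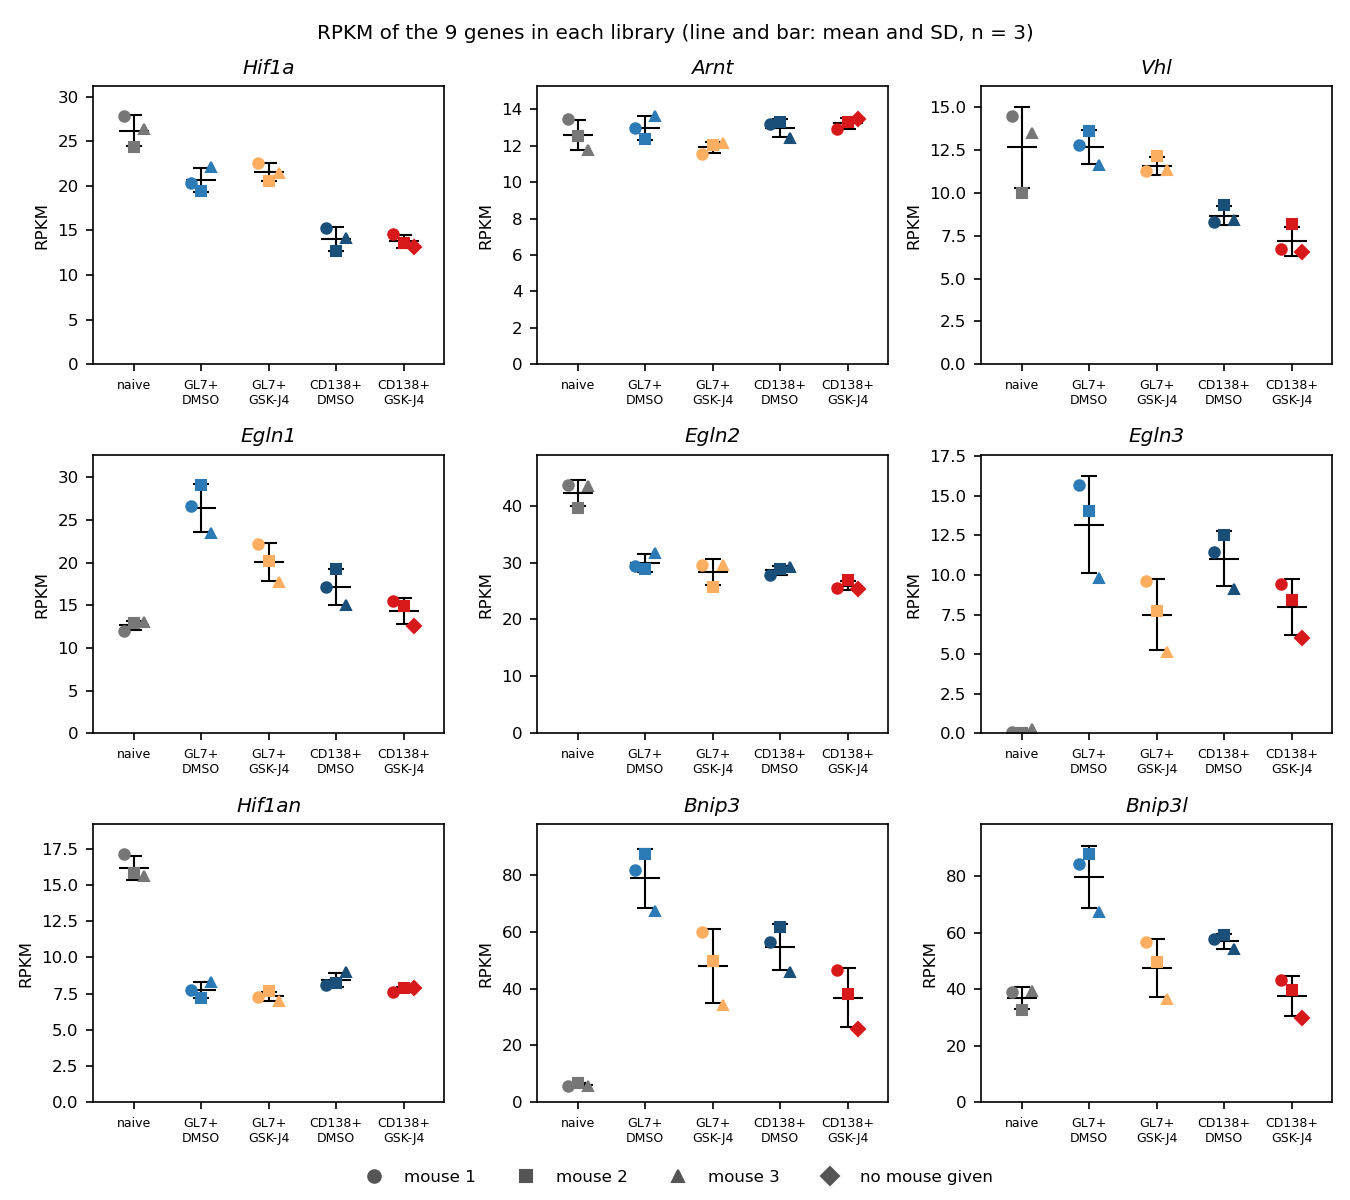
RPKM of the 9 genes in each of the 15 libraries, 1 panel per gene, with the group mean and SD (n = 3) as line and bar and the mouse as the symbol. Egln3 and Bnip3 lie near 0 and near 6 RPKM in naive cells and far above that in all cultured libraries, while Arnt stays between 11.5 and 13.6 RPKM throughout.

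The promoters of Bnip3, Egln1 and Egln3, which rose in culture, and of Egln2 and Hif1an, which fell, are shown because HIF is known to bind a short core motif, spelled ACGTG or GCGTG. The sequences are the 250 bases before the annotated start in RefSeq (GRCm38.p6, a later build than the mm9 of the expression table), written 5′ to 3′ on the gene's strand, with matches to either motif on either strand in capitals. The windows are chr7:138909507-138909756 (minus strand) for Bnip3, chr8:124949255-124949504 (minus strand) for Egln1, chr12:54203875-54204124 (minus strand) for Egln3, chr7:27166803-27167052 (minus strand) for the first of the Egln2 windows and chr19:44562604-44562853 (plus strand) for Hif1an, each just before an annotated start.
Bnip3: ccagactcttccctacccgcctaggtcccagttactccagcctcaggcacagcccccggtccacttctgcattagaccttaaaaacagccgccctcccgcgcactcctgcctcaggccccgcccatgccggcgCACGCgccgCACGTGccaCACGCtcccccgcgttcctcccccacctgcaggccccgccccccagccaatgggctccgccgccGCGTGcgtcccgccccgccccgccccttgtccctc
Egln1: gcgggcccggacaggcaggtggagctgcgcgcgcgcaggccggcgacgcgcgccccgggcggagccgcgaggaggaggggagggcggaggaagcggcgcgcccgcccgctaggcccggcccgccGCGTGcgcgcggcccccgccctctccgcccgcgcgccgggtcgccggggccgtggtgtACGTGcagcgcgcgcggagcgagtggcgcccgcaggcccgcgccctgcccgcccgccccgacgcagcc
Egln3: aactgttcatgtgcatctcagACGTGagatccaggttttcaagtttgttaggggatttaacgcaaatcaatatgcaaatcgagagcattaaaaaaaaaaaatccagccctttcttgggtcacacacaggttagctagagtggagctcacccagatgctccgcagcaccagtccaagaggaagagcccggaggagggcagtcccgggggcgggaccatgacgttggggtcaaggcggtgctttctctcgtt
Egln2: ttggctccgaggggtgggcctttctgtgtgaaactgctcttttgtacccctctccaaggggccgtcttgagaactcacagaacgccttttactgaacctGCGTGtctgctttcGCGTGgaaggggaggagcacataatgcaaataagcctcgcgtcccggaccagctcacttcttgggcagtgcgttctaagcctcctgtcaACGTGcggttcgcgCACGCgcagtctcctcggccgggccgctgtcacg
Hif1an: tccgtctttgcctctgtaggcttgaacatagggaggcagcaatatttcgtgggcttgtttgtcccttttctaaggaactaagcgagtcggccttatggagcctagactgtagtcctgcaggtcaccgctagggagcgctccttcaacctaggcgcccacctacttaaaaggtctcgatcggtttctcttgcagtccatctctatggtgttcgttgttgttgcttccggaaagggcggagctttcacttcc
The Bnip3 window held 5 matches (2 to ACGTG and 3 to GCGTG), of which 2 are the overlapping readings of 1 palindrome on both strands. Egln1 held 2 matches and Egln3 held 1. Among the genes that fell, Egln2 held 4 in the window shown and 1 in its other window, and Hif1an held 0, so the number of matches did not separate the genes that rose from those that fell. RefSeq windows were found for 8 of the 9 genes, not for Bnip3l, and 6 of these 8 held at least 1 match, where 38.6% of 32851 promoter windows of the same length did (16.6% for ACGTG and 28.2% for GCGTG). Hif1a itself held 3 matches to ACGTG, again 2 of them from 1 palindrome, Arnt held 1 match and Vhl held 0. A match describes the letters of the window and not binding.

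Hif1a, the oxygen-regulated subunit, was highest in naive cells and lowest in the CD138+ fraction. Its RPKM was 27.9, 24.4 and 26.3 in naive libraries 1, 2 and 3. In GL7+ cells it was 20.4, 19.4 and 22.1 with DMSO and 22.6, 20.6 and 21.4 with GSK-J4. In CD138+ cells it was 15.3, 12.7 and 14.2 with DMSO and 14.6, 13.6 and 13.2 (the library numbered 4) with GSK-J4. Naive, GL7+ and CD138+ libraries formed 3 separate ranges, and within each fraction the DMSO and GSK-J4 ranges overlapped. Hif1a fell from naive to GL7+ DMSO cells (log2 change -0.33, SE 0.07, adjusted p = 0.000741) and to CD138+ DMSO cells (-0.85, SE 0.07, adjusted p = 3.71e-08). Between the fractions it was lower in CD138+ than in GL7+ cells under DMSO (-0.52, SE 0.07, adjusted p = 2.53e-05). That is a fall of 31.8% in the group mean.

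Arnt, the stable partner of HIF1A, passed the threshold in none of the 6 comparisons and in none of their alternatives. Naive libraries held 13.5, 12.5 and 11.8 RPKM. The cultured libraries spanned 11.5 to 12.2 (GL7+ GSK-J4), 12.4 to 13.6 (GL7+ DMSO), 12.4 to 13.3 (CD138+ DMSO) and 12.9 to 13.5 RPKM (CD138+ GSK-J4). Every pair of neighbouring groups in the order of means overlapped. The interval of the log2 difference between CD138+ and GL7+ cells under DMSO ran from -0.12 to 0.12. With Arnt near one level, the ratio of Hif1a to Arnt RPKM followed Hif1a: it was 2.08 ± 0.15 (SD, n = 3) in naive, 1.59 ± 0.03 in GL7+ DMSO and 1.09 ± 0.11 in CD138+ DMSO libraries. The 3 ranges of this ratio, 1.94 to 2.23, 1.57 to 1.62 and 0.955 to 1.16, did not overlap.

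Vhl, which recognises hydroxylated HIF1A for ubiquitination, was lower in CD138+ cells than in the other cells. Its values were 14.5, 10.005 and 13.5 RPKM in naive libraries, the middle one from the shallowest library with 36 reads on the gene. GL7+ DMSO libraries held 12.8, 13.6 and 11.6 RPKM and CD138+ DMSO libraries 8.29, 9.32 and 8.41. The CD138+ range lay below the other 2, which overlapped. Vhl fell by 0.50 on the log2 scale from GL7+ to CD138+ cells (SE 0.11, adjusted p = 0.00146) and by 0.48 from naive to CD138+ cells (SE 0.11, adjusted p = 0.000999). From naive to GL7+ cells the change was 0.02 with an interval of -0.23 to 0.26.

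Egln1 encodes PHD2, the main HIF prolyl hydroxylase in most cells and itself a HIF target. Naive libraries held 11.98, 12.9 and 13.01 RPKM, GL7+ DMSO libraries 26.6, 29.1 and 23.5, and CD138+ DMSO libraries 17.2, 19.2 and 14.99. The 3 ranges were apart, with GL7+ cells highest. Egln1 rose 2.09-fold in the mean from naive to GL7+ cells (log2 change 1.00, SE 0.10, adjusted p = 3.92e-07) and 1.36-fold from naive to CD138+ cells (0.41, SE 0.10, adjusted p = 0.00232). It was lower in CD138+ than in GL7+ cells by 0.60 on the log2 scale (adjusted p = 0.000196).

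Egln2 encodes PHD1, another HIF prolyl hydroxylase, and moved the opposite way to Egln1. Its RPKM was 43.6, 39.6 and 43.5 in naive cells, 29.3, 28.8 and 31.7 in GL7+ DMSO cells and 27.7, 28.9 and 29.2 in CD138+ DMSO cells. The naive libraries stood above all cultured ones, and the cultured fractions overlapped. The fall against naive cells was 29.0% in GL7+ cells (log2 change -0.48, SE 0.06, adjusted p = 3.59e-06) and 32.2% in CD138+ cells (-0.54, SE 0.06, adjusted p = 8.43e-07). Between the fractions the interval of the difference was -0.20 to 0.07.

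Egln3 encodes PHD3, a prolyl hydroxylase known to be induced by HIF. In naive libraries it was listed at 0.057, 0 and 0.242 RPKM, which stand for 2, 0 and 4 reads. GL7+ DMSO libraries held 15.7, 14.1 and 9.79 RPKM and CD138+ DMSO libraries 11.4, 12.5 and 9.12. Both cultured ranges lay far above the naive one and overlapped each other. Egln3 passed the filter on low values through the cultured libraries alone, so no p-value is given for its change against naive cells. The log2 change against naive cells was 3.67 in GL7+ cells (SE 0.21) and 3.45 in CD138+ cells (SE 0.21). With so few naive reads the size of this change depends on the pseudocount, and with 0.1 in place of 1 it was 6.22 and 5.98.

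As a share of the summed RPKM of the 3 prolyl hydroxylase genes, Egln2 made up 76.8% ± 1.5 (SD, n = 3) in naive cells and Egln3 0.176% ± 0.223. In GL7+ DMSO cells the shares were 37.9% ± 2.2 for Egln1, 43.2% ± 4.8 for Egln2 and 18.8% ± 3.5 for Egln3. In CD138+ DMSO cells they were 30.1% ± 1.8, 50.5% ± 3.8 and 19.3% ± 2.0 in the same order. Their sum moved less than their shares: 52.5 to 56.7 RPKM in naive, 65.0 to 72.0 in GL7+ DMSO and 53.3 to 60.6 in CD138+ DMSO libraries, so the CD138+ sum overlapped the naive one. These shares are ratios within a library and were not tested.

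**Figure D2:**
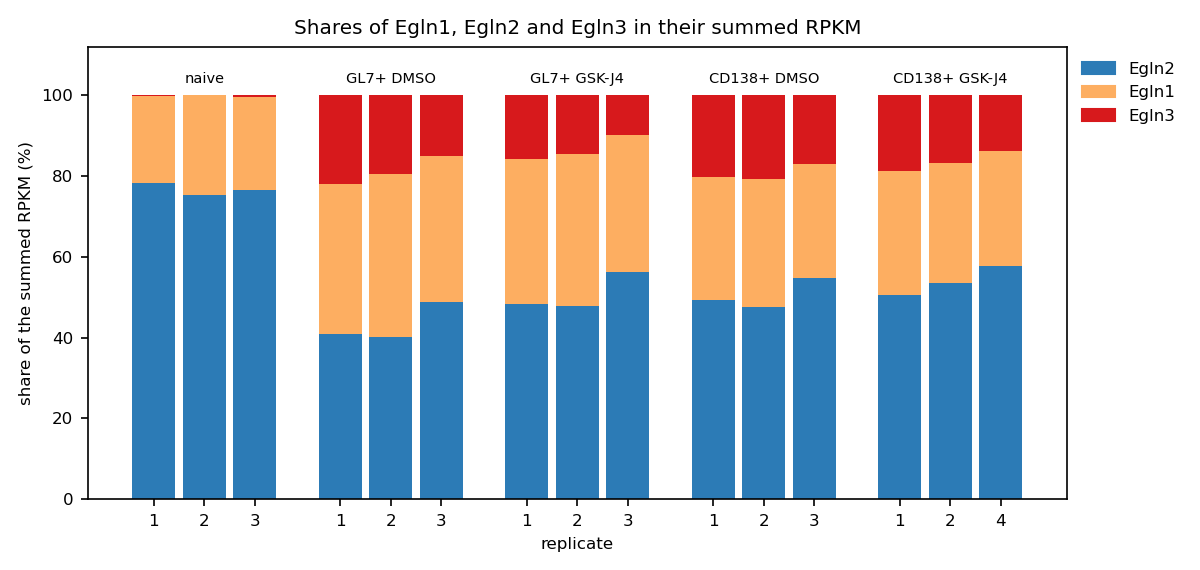
Shares of Egln1, Egln2 and Egln3 in their summed RPKM (vertical axis, percent), 1 bar per library in 5 groups. Egln2 takes 75.4% to 78.4% in naive libraries and 40.04% to 57.7% in the cultured ones, where Egln3 appears as the top segment.

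Hif1an encodes FIH, which hydroxylates an asparagine of HIF1A. Its RPKM was 17.1, 15.8 and 15.6 in naive, 7.73, 7.23 and 8.30 in GL7+ DMSO and 8.08, 8.26 and 9.01 in CD138+ DMSO libraries. All cultured libraries stood below all naive ones. The fall was 52.1% in GL7+ cells (log2 change -0.97, SE 0.06, adjusted p = 1.94e-09) and 47.8% in CD138+ cells (-0.86, SE 0.06, adjusted p = 6.78e-09). The fractions overlapped, with a difference of 0.11 (interval -0.03 to 0.25, adjusted p = 0.152). Under quantile normalization and median-of-ratios scaling that difference passed the threshold, at 0.20 (adjusted p = 0.0145) and 0.21 (adjusted p = 0.013).

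Bnip3, a mitophagy receptor induced by HIF, went from 5.83, 6.91 and 5.63 RPKM in naive libraries to 81.7, 87.3 and 67.1 in GL7+ DMSO and 56.5, 61.5 and 45.9 in CD138+ DMSO libraries. The 3 groups did not overlap. The naive values stand for 135, 16 and 61 reads. The rise against naive cells was 12.9-fold in the mean in GL7+ cells (log2 change 3.48, SE 0.21, adjusted p = 5.78e-10) and 8.92-fold in CD138+ cells (2.96, SE 0.21, adjusted p = 3.21e-09).

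Bnip3l, its paralog, also known as NIX and best known for clearing mitochondria from maturing red cells, started higher and rose less. It stood at 38.9, 32.6 and 39.5 RPKM in naive, 84.4, 87.9 and 67.4 in GL7+ DMSO and 57.8, 59.2 and 54.1 in CD138+ DMSO libraries, again with no overlap. The rise was 2.16-fold in GL7+ cells (log2 change 1.09, SE 0.16, adjusted p = 1.23e-05) and 1.54-fold in CD138+ cells (0.61, SE 0.16, adjusted p = 0.00201). The ratio of Bnip3 to Bnip3l RPKM was 0.168 ± 0.038 (SD, n = 3) in naive cells, and 0.986 ± 0.015 and 0.955 ± 0.097 in GL7+ and CD138+ DMSO cells, so the pair stood at about one level after culture.

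Between the fractions under DMSO, 5 of 9 genes were lower in CD138+ than in GL7+ cells and 0 were higher, where 36.9% and 21.8% of all genes tested were lower and higher. Besides Hif1a, Vhl and Egln1, given above, these were Bnip3 (log2 change -0.52, SE 0.21, adjusted p = 0.0426) and Bnip3l (-0.47, SE 0.16, adjusted p = 0.0177). For both the CD138+ values were all below the GL7+ values. The first 3 calls held in all 22 alternatives. Bnip3 lost its call in 10 of 22, among them median-of-ratios scaling (adjusted p = 0.106), no filter on low values (0.0895), and leaving out GL7+ DMSO replicate 1 (0.101) or 2 (0.131), CD138+ DMSO replicate 1 (0.0672) or 3 (0.157), GL7+ GSK-J4 replicate 2 (0.0511) or CD138+ GSK-J4 replicate 2 (0.0513). Bnip3l lost its call in 4 of 22: median-of-ratios scaling (0.0565) and leaving out GL7+ DMSO replicate 1 (0.0589) or 2 (0.0716) or CD138+ DMSO replicate 3 (0.0572). The median change of all genes in this comparison was -0.10, and of all genes called 37.2% were higher, or 49.6% with median-of-ratios scaling.

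With GSK-J4, the 4 genes that had risen in culture were lower in GL7+ cells. Egln1, Egln3, Bnip3 and Bnip3l all fell, which makes 4 of 9 lower and 0 higher, where 7.71% of all genes tested were lower and 5.81% higher (13.5% in either direction). Hif1a, Arnt, Vhl, Egln2 and Hif1an did not pass the threshold. In CD138+ cells 1 of 9 fell, Bnip3l, where 8.61% of all genes were lower and 4.61% higher (13.2% in either direction). The comparisons with naive cells, between fractions and with GSK-J4 share their DMSO libraries, so their values are not independent of each other.

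In GL7+ cells Bnip3 was 81.7, 87.3 and 67.1 RPKM in mice 1, 2 and 3 with DMSO and 60.0, 49.8 and 34.2 in the same mice with GSK-J4. All GSK-J4 values were below all DMSO values, and the fall within a mouse was 26.6%, 43.0% and 49.0%. The log2 change was -0.73 (SE 0.21, adjusted p = 0.0316).

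Bnip3l moved alongside. It was 84.4, 87.9 and 67.4 RPKM with DMSO and 56.8, 49.7 and 36.6 with GSK-J4, with no overlap, and fell by 32.7%, 43.5% and 45.8% within mice 1, 2 and 3. The log2 change was -0.75 (SE 0.16, adjusted p = 0.00675), a fall of 40.3% in the mean. This was the call that held in all 22 alternatives, with adjusted p at most 0.032.

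Among the prolyl hydroxylases, Egln3 was 15.7, 14.1 and 9.79 RPKM with DMSO and 9.63, 7.74 and 5.14 with GSK-J4. The lowest DMSO library, mouse 3, stood just above the highest GSK-J4 library, mouse 1, while within mice the fall was 38.6%, 45.0% and 47.5%. The log2 change was -0.75 (SE 0.21, adjusted p = 0.0286). Egln1 was 26.6, 29.1 and 23.5 RPKM with DMSO and 22.2, 20.2 and 17.8 with GSK-J4, also without overlap. Its fall within mice was smaller, at 16.7%, 30.5% and 24.4%, and the log2 change was -0.38 (SE 0.10, adjusted p = 0.0282). Egln2, at 29.6, 25.7 and 29.6 RPKM with GSK-J4, overlapped its DMSO values (log2 change -0.08, interval -0.21 to 0.05).

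**Figure D3:**
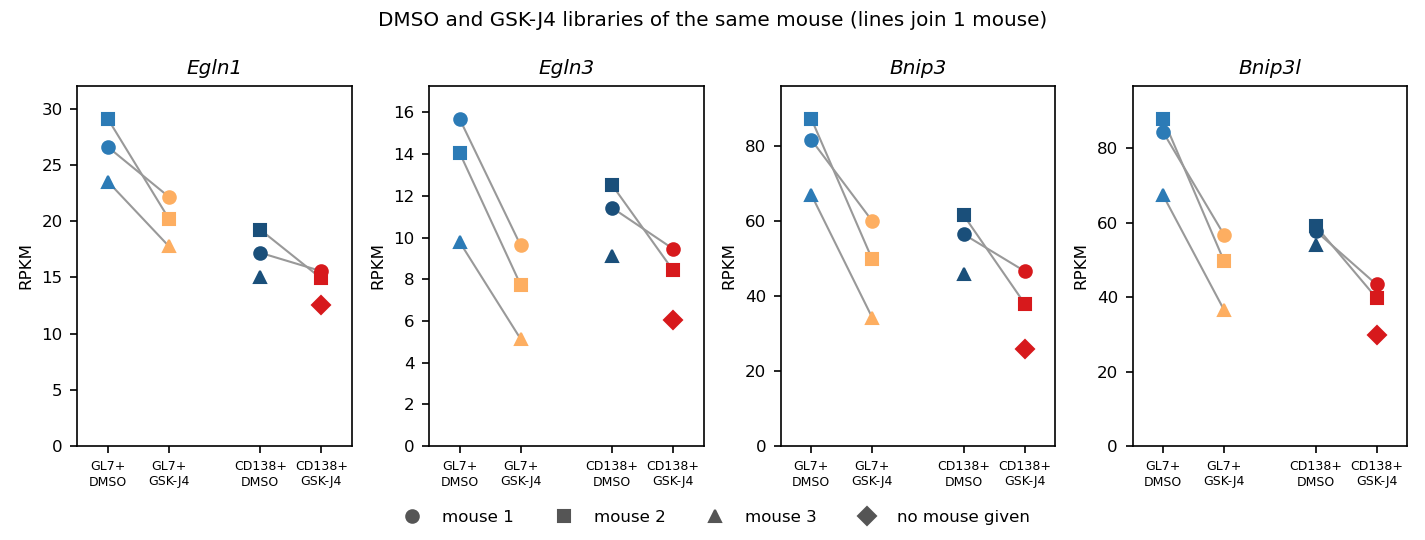
RPKM of Egln1, Egln3, Bnip3 and Bnip3l in the DMSO and GSK-J4 libraries of each fraction, with lines joining libraries of 1 mouse. All lines go down, and the library without a given mouse, in the CD138+ GSK-J4 group, is the lowest of its group for each gene.

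The calls of Egln1, Egln3 and Bnip3 in GL7+ cells depended on which libraries entered. All 3 held without GL7+ DMSO replicate 3 or GL7+ GSK-J4 replicate 1. They also held with the mouse as a block in limma, which pairs libraries of 1 animal, at adjusted p of 0.0108, 0.0127 and 0.00294. Without GL7+ DMSO replicate 1 their adjusted p was 0.0851, 0.122 and 0.0986, and without replicate 2 it was 0.108, 0.0878 and 0.103. Without GL7+ GSK-J4 replicate 2 it was 0.0732, 0.0677 and 0.0705, and without replicate 3 it was 0.125, 0.13 and 0.142. All 3 were also lost with no filter on low values (0.0558, 0.0648 and 0.0731), and Egln3 with a pseudocount of 0.1 (0.163). Bnip3l kept its call in each of these fits.

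The other 5 genes in GL7+ cells gave small changes that did not pass the threshold, with the widest interval for Vhl. For Hif1a the log2 change was 0.06 (interval -0.10 to 0.22), for Arnt -0.12 (-0.24 to 0.01), for Vhl -0.12 (-0.36 to 0.12) and for Hif1an -0.07 (-0.21 to 0.06). Vhl was 11.3, 12.2 and 11.3 RPKM with GSK-J4, and Hif1an was 7.26, 7.67 and 7.01. Both overlapped their DMSO values. Arnt was 11.5, 12.01 and 12.2 RPKM with GSK-J4, all below the lowest DMSO value of 12.4, at an adjusted p of 0.211.

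In CD138+ cells Bnip3l was 57.8, 59.2 and 54.1 RPKM with DMSO and 43.4, 39.7 and 29.8 with GSK-J4, the last being the library numbered 4. The groups did not overlap, and within mice 1 and 2 the fall was 25.0% and 32.9%. The log2 change was -0.60 (SE 0.16, adjusted p = 0.0209). Leaving out replicate 1 or 2 of the DMSO group ended the call (adjusted p = 0.0648 and 0.0702), as did leaving out the GSK-J4 library numbered 4 (0.0903).

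Bnip3 in CD138+ cells was 56.5, 61.5 and 45.9 RPKM with DMSO and 46.6, 38.0 and 25.9 with GSK-J4. Replicate 1 with GSK-J4 stood just above replicate 3 with DMSO, so the groups overlapped by that pair. The log2 change of -0.59 (SE 0.21) had an adjusted p of 0.0781. With the mouse as a replicate block, which pairs libraries of 1 animal and here draws on mice 1 and 2 of the GSK-J4 group, it was -0.48 with an adjusted p of 0.0472. It also passed the threshold in the fit of recovered reads with voom (0.0188), without CD138+ GSK-J4 replicate 1 (0.036) and without GL7+ GSK-J4 replicate 3 (0.047).

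The hydroxylase genes in CD138+ cells gave lower values with GSK-J4 that did not pass the threshold. Egln1 was 15.6, 14.9 and 12.6 RPKM with GSK-J4 (log2 change -0.24, interval -0.47 to -0.02, adjusted p = 0.155) and Egln3 was 9.46, 8.43 and 6.05 (-0.43, interval -0.88 to 0.01, adjusted p = 0.2). Both overlapped their DMSO values. Egln2 was 25.6, 26.9 and 25.4 RPKM, all below the DMSO values (-0.14, adjusted p = 0.171), and Hif1an was 7.62, 7.89 and 7.90, likewise below (-0.10, adjusted p = 0.344).

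Vhl in CD138+ cells was 6.75, 8.17 and 6.58 RPKM with GSK-J4, below all DMSO values, with a log2 change of -0.25 (interval -0.49 to -0.01, adjusted p = 0.171). It passed the threshold in the fit of the 12 cultured libraries (0.0421) and without naive replicate 2 (0.0394), the shallowest library. Hif1a gave -0.03 (interval -0.18 to 0.13) and Arnt 0.03 (-0.10 to 0.15). Depth moved with the drug in this fraction, as given above, and its part in these results was not tested.

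The effect of GSK-J4 was not shown to differ between the fractions for any of the 9 genes. In limma's test of the difference, 0 of 9 passed the threshold, 0 of 9 had an unadjusted p under 0.05, and 0 of 9 passed in any of the 22 alternatives, where 0.966% of all genes tested passed. For Bnip3l the CD138+ effect minus the GL7+ effect was 0.14 (interval -0.33 to 0.62), for Bnip3 0.14 (-0.48 to 0.77), for Egln3 0.32 (-0.31 to 0.95) and for Egln1 0.14 (-0.18 to 0.46). For Egln1, Bnip3 and Egln3 the intervals reach as far from 0 as the effects in GL7+ cells, -0.38, -0.73 and -0.75.

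**Figure D4:**
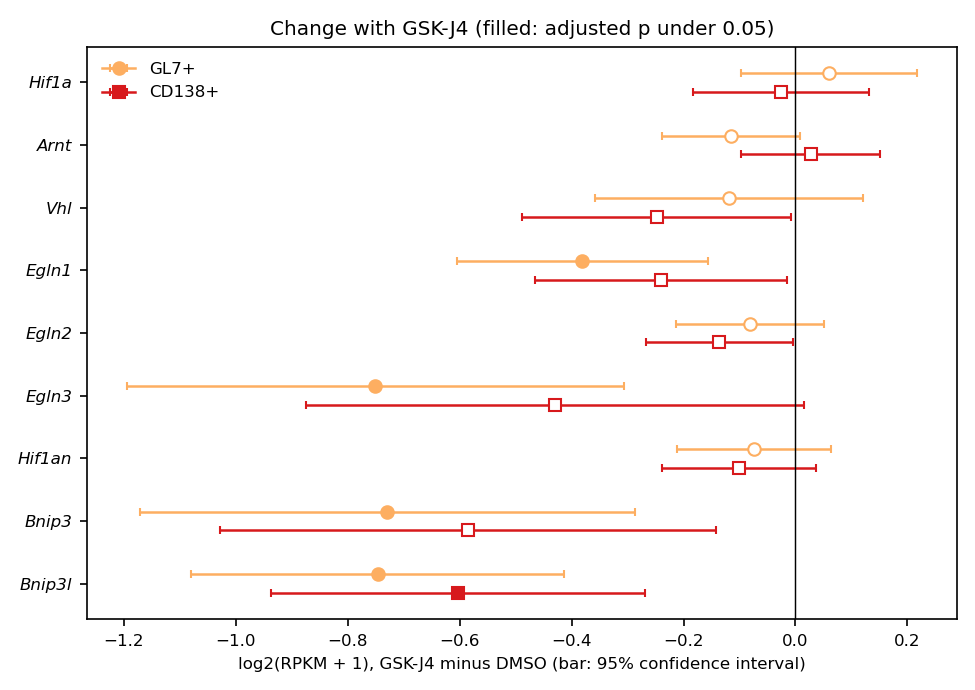
Change of each of the 9 genes with GSK-J4 (horizontal axis, log2(RPKM + 1), GSK-J4 minus DMSO) in GL7+ cells (circles) and CD138+ cells (squares), with 95% confidence intervals and filled symbols for adjusted p under 0.05. Egln1, Egln3, Bnip3 and Bnip3l lie furthest to the left in GL7+ cells, from -0.38 to -0.75, and Hif1a and Arnt lie within 0.12 of 0 in both fractions.

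Cell type markers moved with the drug as well. The summed RPKM of 6 B cell markers was 1693 to 1785 in GL7+ DMSO and 1288 to 1473 in GL7+ GSK-J4 libraries, and 1043 to 1101 against 820 to 865 in CD138+ cells. That of 4 naive B cell markers was 165 to 180 against 81.4 to 108 in GL7+ and 36.0 to 43.5 against 14.6 to 20.1 in CD138+ cells. The 6 plasmablast markers summed to 1423 to 1567 RPKM in GL7+ GSK-J4 libraries, above all GL7+ DMSO libraries. The part of cell composition in the GSK-J4 results was not tested.

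The same ratios were taken in the GSK-J4 groups, and none was tested. The ratio of Bnip3 to Bnip3l was 0.998 ± 0.061 (SD, n = 3) in GL7+ and 0.966 ± 0.103 in CD138+ GSK-J4 cells, in ranges that overlapped those with DMSO. Egln3 made up 13.3% ± 3.1 of the summed Egln RPKM in GL7+ and 16.4% ± 2.5 in CD138+ GSK-J4 cells. In GL7+ cells its share was 21.9%, 19.5% and 15.1% with DMSO and 15.7%, 14.4% and 9.79% with GSK-J4 in mice 1, 2 and 3. It was lower with GSK-J4 in each mouse, while the groups overlapped by mouse 1 with GSK-J4 and mouse 3 with DMSO. In CD138+ cells the share was 20.3% and 20.7% with DMSO and 18.7% and 16.8% with GSK-J4 in mice 1 and 2, and the groups overlapped. The summed Egln RPKM was 52.5 to 61.4 in GL7+ GSK-J4 libraries, below the 65.0 to 72.0 RPKM of GL7+ DMSO libraries. The ratio of Hif1a to Arnt ran from 1.71 to 1.95 in GL7+ GSK-J4 libraries, above the range with DMSO. In CD138+ GSK-J4 libraries it ran from 0.978 to 1.13, within the range with DMSO.

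The stated targets of the drug were not called in either GSK-J4 comparison. Kdm6a was 22.5 ± 1.5 RPKM (SD, n = 3) with DMSO and 22.6 ± 2.0 with GSK-J4 in GL7+ cells, and 27.7 ± 1.5 and 29.8 ± 2.5 in CD138+ cells. Kdm6b was 7.54 ± 1.68 and 5.95 ± 0.34 in GL7+ cells (adjusted p = 0.114), and 4.12 ± 0.32 and 3.69 ± 0.14 in CD138+ cells (adjusted p = 0.513). GSK-J4 acts on the enzymes, so these RNA levels are no check of the treatment.

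The profiles most like those of the 9 genes were sought among all genes tested. Likeness was the root mean square difference of log2(RPKM + 1), centred on each gene's mean over the 15 libraries. Egln1 was nearest to Hk1, a hexokinase (0.097), and Pdk1, a kinase that inhibits pyruvate dehydrogenase (0.126). Bnip3l was nearest to Pdk1 (0.138) and Egln1 (0.206). Egln3 was nearest to Pgk1, a glycolytic kinase (0.257), and Slc1a4, an amino acid transporter (0.266), and Bnip3 to Fam64a (0.259) and Egln3 (0.267). For comparison, the spread of each profile around its own mean was 0.37 for Egln1, 0.45 for Bnip3l, 1.36 for Egln3 and 1.23 for Bnip3.

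The remaining 5 genes had other neighbours. Hif1a was nearest to Rnf2, a Polycomb ubiquitin ligase (0.075), and Pigw (0.081), Vhl to Mfsd1 (0.081) and Mavs (0.089), Egln2 to Dnm2 (0.067) and Dnajc5 (0.067), and Hif1an to Crbn (0.061) and Son (0.066). Arnt was nearest to Setd5 (0.059) and Sipa1l1 (0.061), but its own spread was only 0.07, so its likeness to them says little. Likeness is a description over libraries that share mice and groups.

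Among 22 known HIF targets of glycolysis and glucose uptake, all tested, 12 fell and 0 rose with GSK-J4 in GL7+ cells, and 12 fell and 0 rose in CD138+ cells, where 7.71% and 8.61% of all genes fell. Their median log2 change was -0.27 in GL7+ cells, where the median of all genes was -0.01, and -0.34 in CD138+ cells, where it was -0.03. Against naive cells 18 had risen and 3 had fallen in GL7+ DMSO cells, with a median of 2.30, and 17 and 3 in CD138+ DMSO cells, with a median of 1.90. Of all genes 41.3% had risen and 40.3% had fallen in GL7+ DMSO cells, and 39.9% and 43.5% in CD138+ DMSO cells. Aldoc, an aldolase, was 38.3 ± 3.6 RPKM (SD, n = 3) with DMSO and 13.8 ± 3.2 with GSK-J4 in GL7+ cells, and 19.4 ± 2.1 and 9.87 ± 3.29 in CD138+ cells (log2 changes -1.42 and -0.95, adjusted p = 0.00177 and 0.0174). Pgk1 fell from 865 ± 73 to 653 ± 72 RPKM in GL7+ cells (adjusted p = 0.0105) and from 669 ± 52 to 466 ± 30 in CD138+ cells (adjusted p = 0.00227). Pgam1 and the lactate dehydrogenase gene Ldha fell in CD138+ cells (log2 changes -0.36 and -0.42, adjusted p = 0.00605 and 0.0061) and were at -0.13 and -0.18 in GL7+ cells (0.278 and 0.199).

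These counts leaned on single libraries. In CD138+ cells leaving out DMSO replicate 2 reduced the number of glycolytic targets that fell to 4, and leaving out GSK-J4 replicate 4 reduced it to 7. In GL7+ cells it was 5 without GL7+ DMSO replicate 1 or 2, 6 without GL7+ GSK-J4 replicate 2 and 2 without GL7+ GSK-J4 replicate 3. The medians moved less, between -0.33 and -0.23 in GL7+ and between -0.38 and -0.30 in CD138+ cells over the 22 alternatives. Pgk1 lost its call in GL7+ cells without GL7+ GSK-J4 replicate 3 (adjusted p = 0.053). Aldoc lost its call in CD138+ cells without CD138+ DMSO replicate 1 (0.06) or 2 (0.064) or CD138+ GSK-J4 replicate 4 (0.074).

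Of 32 other HIF targets, without the members themselves, 28 were tested. Pfkfb4 stands in this list and among the glycolytic targets. In GL7+ cells 9 fell and 2 rose with GSK-J4 (median -0.27), and in CD138+ cells 4 fell and 1 rose (median -0.17). Of all genes 7.71% fell and 5.81% rose in GL7+ cells, and 8.61% and 4.61% in CD138+ cells, where the list's counts were near these shares. Bhlhe40, a transcriptional repressor, was 24.2 ± 1.1 RPKM with DMSO and 17.0 ± 2.8 with GSK-J4 in GL7+ cells (SD, n = 3), and 7.99 ± 1.71 and 3.98 ± 0.64 in CD138+ cells (adjusted p = 0.0278 and 0.00125). Cxcr4, the receptor of the chemokine CXCL12, went the other way and rose from 29.3 ± 2.0 to 40.3 ± 1.3 RPKM in GL7+ and from 101 ± 2 to 141 ± 1 in CD138+ cells (adjusted p = 0.000287 and 0.000101). Higd1a, a mitochondrial protein gene, fell in CD138+ cells (log2 change -0.47, adjusted p = 0.00139), and the collagen lysyl hydroxylase gene Plod2 fell in GL7+ cells (-0.57, adjusted p = 0.00395). The list thus held members moving in both directions.

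The count of lower genes in this second list ranged from 2 to 16 over the alternatives in GL7+ cells and from 2 to 8 in CD138+ cells. In GL7+ cells it was 2 without GL7+ DMSO replicate 1 or GL7+ GSK-J4 replicate 3, and 4 without GL7+ DMSO replicate 2 or GL7+ GSK-J4 replicate 2. In CD138+ cells it was 2 without CD138+ DMSO replicate 1 or 2 or CD138+ GSK-J4 replicate 4, and the count of higher genes was 3 without naive replicate 2 and 2 without naive replicate 1 or 3. Bhlhe40 lost its call in GL7+ cells without any 1 of GL7+ DMSO replicates 1 (adjusted p = 0.09), 2 (0.073) and 3 (0.056) or GL7+ GSK-J4 replicates 2 (0.099) and 3 (0.12). Higd1a, not called in GL7+ cells, passed there without naive replicate 2 (0.045).

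Of 17 genes of the VHL ubiquitin ligase and of HIF1A regulators, 15 were tested, and 1 fell and 0 rose with GSK-J4 in each fraction (medians 0.01 in GL7+ and -0.05 in CD138+ cells), near the 7.71% and 8.61% of all genes that fell in GL7+ and CD138+ cells. The gene was Siah2 in both, a ubiquitin ligase known to target the prolyl hydroxylases. It was 84.3 ± 3.0 RPKM (SD, n = 3) with DMSO and 67.2 ± 2.3 with GSK-J4 in GL7+ cells, and 35.9 ± 3.4 and 24.1 ± 1.6 in CD138+ cells (adjusted p = 0.00922 and 0.000231), with its call held in all 22 alternatives of each. Rbx1, the RING subunit of the VHL ligase, Os9 and Gnb2l1 (now Rack1) had log2 changes of -0.17, 0.14 and -0.17 in CD138+ cells (adjusted p = 0.0828, 0.087 and 0.0834). The count of lower genes in CD138+ cells was 2 without any 1 naive replicate, Gnb2l1 passing without naive replicate 1 (0.012) or 3 (0.047), and Rbx1 without naive replicate 2 (0.048). Without naive replicate 2 the count of higher genes was 1 in each fraction, in CD138+ cells Os9 (0.034), and with the mouse as a replicate block it was 1 in GL7+ cells.

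Of the other bHLH-PAS subunits, Epas1 and Arntl were tested among 5, and limma called 0 with GSK-J4 in either fraction, with 0 at an unadjusted p under 0.05. Epas1, which encodes HIF2A, was 0.077 ± 0.059 RPKM (SD, n = 3) in naive, 0.517 ± 0.102 in GL7+ DMSO and 2.43 ± 0.44 in CD138+ DMSO cells. It passed the filter on low values through the CD138+ groups alone, so its difference between the fractions is given without a test. Its level per gene length in CD138+ DMSO cells was still below the 14.1 ± 1.3 RPKM of Hif1a.

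Of 19 mitophagy receptors, adaptors and related genes other than Bnip3 and Bnip3l, 18 were tested, and with GSK-J4 3 fell and 1 rose in GL7+ cells and 1 fell and 0 rose in CD138+ cells (medians -0.03 and -0.10). In CD138+ cells that is near the 8.61% of all genes that fell and the 4.61% that rose, and in GL7+ cells 7.71% fell and 5.81% rose. Bcl2, an inhibitor of apoptosis that also binds BNIP3, was 19.9 ± 0.1 RPKM (SD, n = 3) with DMSO and 14.5 ± 1.1 with GSK-J4 in GL7+ cells, and 6.94 ± 0.75 and 3.92 ± 0.75 in CD138+ cells (adjusted p = 0.011 and 0.000396). Its relative Bcl2l1 rose from 17.4 ± 1.9 to 25.4 ± 2.6 RPKM in GL7+ cells (adjusted p = 0.00676). The autophagy receptor gene Calcoco1 and the LC3 gene Map1lc3b fell in GL7+ cells (log2 changes -0.61 and -0.24, adjusted p = 0.000662 and 0.0283). Map1lc3b lost its call without any 1 GL7+ DMSO replicate (0.085, 0.081 and 0.059) and without GL7+ GSK-J4 replicate 1 (0.051) or 2 (0.13), and Bcl2 in GL7+ cells without GL7+ GSK-J4 replicate 3 (0.054). Without naive replicate 2 the count of lower genes was 5 in GL7+ and 2 in CD138+ cells, and with the mouse as a block it was 2 in CD138+ cells. Without naive replicate 2 the count of higher genes in CD138+ cells was 2, and it was 1 without naive replicate 1 or 3 or CD138+ GSK-J4 replicate 1. Bcl2l1 passed in CD138+ cells without naive replicate 2 (0.027) or 3 (0.049) or CD138+ GSK-J4 replicate 1 (0.047).

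Other 2-oxoglutarate dependent dioxygenases, the enzyme class of the HIF hydroxylases and of the drug's targets, were tested for 23 of 25 genes, several of which (P4ha2 and Plod2 among them) also stand among the HIF targets. In GL7+ cells 5 fell and 0 rose with GSK-J4, and in CD138+ cells 4 fell and 1 rose (medians -0.13 and -0.10), where 7.71% of all genes fell and 5.81% rose in GL7+ cells and 8.61% and 4.61% in CD138+ cells. The histone demethylase genes Kdm4a, Kdm4b and Kdm5b fell in both fractions. Kdm4a was 29.7 ± 0.7 RPKM (SD, n = 3) with DMSO and 22.9 ± 1.2 with GSK-J4 in GL7+ cells, and 19.6 ± 0.5 and 16.4 ± 0.7 in CD138+ cells (adjusted p = 0.000723 and 0.00714). Kdm5b was 4.48 ± 0.35 and 2.53 ± 0.53 RPKM in GL7+ cells and 3.92 ± 0.36 and 2.78 ± 0.32 in CD138+ cells (adjusted p = 0.00177 and 0.0305). The count of lower genes in GL7+ cells was 10 with voom. In CD138+ cells it was 1 without CD138+ DMSO replicate 2 or CD138+ GSK-J4 replicate 4 and 2 without CD138+ DMSO replicate 1 or CD138+ GSK-J4 replicate 1. Kdm5b lost its call there without CD138+ DMSO replicate 1 (0.094) or 2 (0.11) or CD138+ GSK-J4 replicate 1 (0.096) or 4 (0.098), and Kdm4b without CD138+ DMSO replicate 2 (0.053) or CD138+ GSK-J4 replicate 4 (0.052). The 1 higher gene, Plod3, was lost without CD138+ DMSO replicate 1 or CD138+ GSK-J4 replicate 2 or 4.

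**Figure D5:**
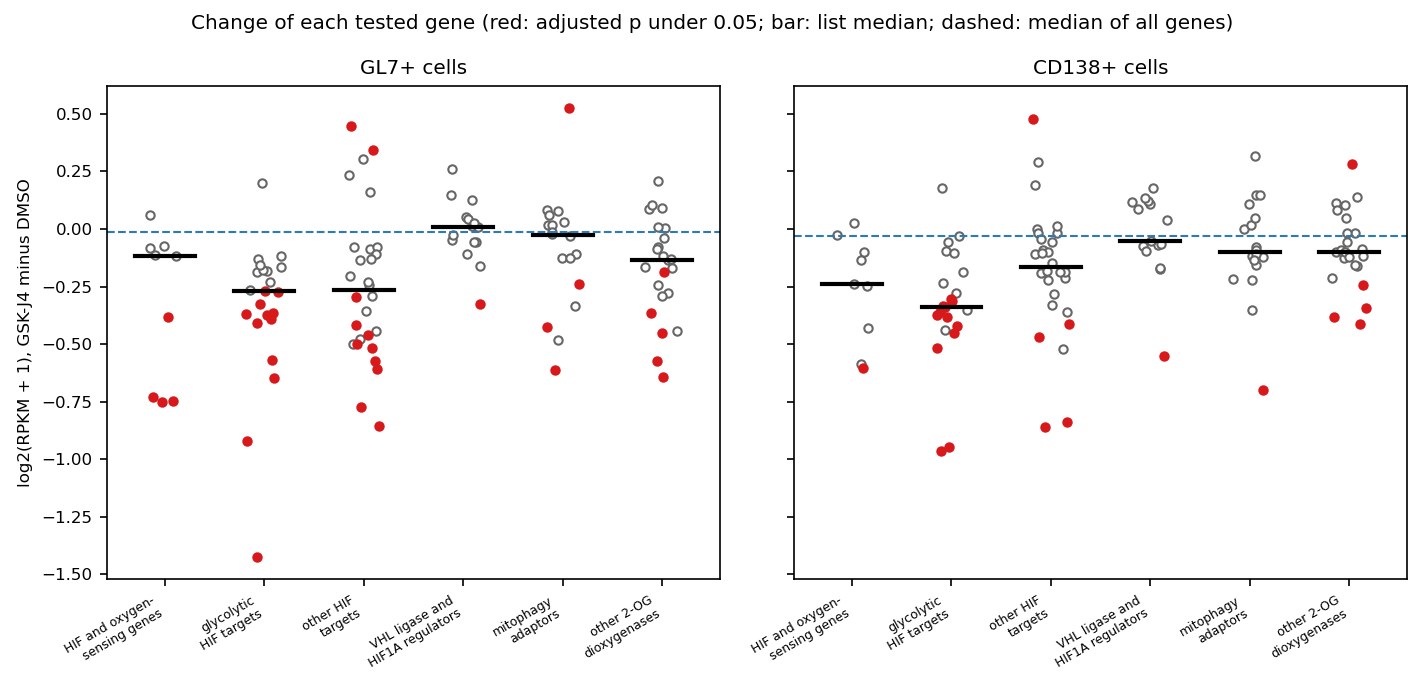
Change of each tested gene with GSK-J4 (vertical axis, log2(RPKM + 1), GSK-J4 minus DMSO) in the 9 genes and 5 related lists, for GL7+ cells (left) and CD138+ cells (right). Red points have an adjusted p under 0.05, bars are list medians and the dashed line is the median of all genes. The glycolytic targets have medians of -0.27 and -0.34, below the dashed line at -0.01 and -0.03, and the VHL ligase list lies around it.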

How the data were processed

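RNA of 15 libraries in 5 groups of 3 was analysed, grouped by GEO's labels. The authors deposited RPKM for 21761 genes, as the file headers state. TopHat2 and the mm9 genome are named in the submitters' processing notes. How reads were counted, with which gene models, strand setting or filters, is not given in the sources used here. Because strand is unknown, overlapping genes cannot be told apart: Hif1a overlaps Gm15283, Egln1 overlaps Gm46060 and Bnip3 overlaps Gm18258 in RefSeq, and Vhl and Bnip3l have pseudogenes, so their values are uncertain to that extent.

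The product of RPKM and gene length adds up to 1000000 per library, which means scaling to assigned reads. Depth was fitted so that values worth 20 reads or fewer, where rounding error was small, came to whole reads. At least 99.9% of these values lay within 0.1 of a whole read, a share that the fit itself favours. The depth was on average 9197851 reads per library. In naive replicate 2, the shallowest library, Egln3 rested on 0 reads, Bnip3 on 16 and Vhl on 36. P-values of the main fit rest on the spread between libraries within groups, in which mouse, culture, enrichment and depth are not separated. The main fit did not pair libraries of the same mouse. The mouse entered only in the alternative that used it as a block.

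The 10866 genes reaching 1 RPKM or more in 3 or more libraries were tested on log2(RPKM + 1), a pseudocount of 1, using limma 3.58.1 (R 4.3.3), with all libraries in 1 fit, a mean per group, trended variance, Benjamini-Hochberg adjustment, threshold 0.05. The RPKM branch of the planned test was used. The 6 comparisons share libraries. Intervals are 95%. The script was tested on simulated data. Alternatives were a pseudocount of 0.1, no filter, quantile normalization, median-of-ratios scaling, the mouse as a block, voom on recovered reads, the 12 cultured libraries alone and leaving out each library.

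The labels give the mouse of each sample, so replicate numbers pair all libraries but the CD138+ GSK-J4 library numbered 4. Cultured libraries were also compared by how they deviated from their group's mean. The median r was 0.0944 within a mouse (15 pairs, -0.0307 to 0.191) and -0.0332 across mice (30 pairs, -0.145 to 0.0666). The ranges overlapped. Deviations within a group sum to 0, so the medians are not independent and the comparison is no separate check of the pairing. The CD138+ GSK-J4 column numbered 4 matched its group and no single sample, and formed a block level of its own.

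The 9 genes, the related lists and the markers were chosen with earlier results of these data known. The text names all 9 genes in every comparison, up to 4 tested genes per list with the smallest adjusted p in either GSK-J4 comparison, Kdm6a and Kdm6b, and the 2 most similar profiles of each of the 9 genes. Plod3 is named outside this rule, after its values were seen. Protein sequences were not analysed here. Plots were made in python 3.11.15 with matplotlib 3.10.9.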

Additional observations from a re-analysis of the deposited data

How the results depend on the processing

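Over the alternatives, 1129 values of the 9 genes stayed on their side of the threshold, 33 lost it and 8 gained it, and no called value changed sign. The block of the mouse moved the number of genes called with GSK-J4 from 1437 to 927 in CD138+ cells, and in the difference between the fractions from 105 to 32. Of the 9 genes, 2 instead of 1 were called in CD138+ cells under the replicate block, with voom and with the 12 cultured libraries alone, and the block changed no other call among them. All genes called in CD138+ cells were 2316 with the 12 cultured libraries, and in GL7+ cells, from 1469, they were 2621 with voom and 2416 with the 12 cultured libraries. The difference between the fractions gave 53 genes with no filter, 433 with voom and 462 with the 12 cultured libraries. With no filter 1 instead of 4 of the 9 genes was called in GL7+ cells.

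Leaving out 1 library gave 825 to 2182 genes and 0 to 2 of the 9 in CD138+ cells, 743 to 2281 genes and 1 to 4 of the 9 in GL7+ cells, and 18 to 361 genes for the difference. Between the fractions under DMSO it gave 3 to 5 of the 9. Without naive replicate 2, the shallowest library, counts were highest (2182, 2281 and 361). The cause of these changes was not tested. Of the genes called with GSK-J4, 34.9% were higher in CD138+ cells, or 46.7% with quantile normalization, and 43.0% in GL7+ cells, or 58.7% with median-of-ratios scaling.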

Other observations

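Mouse 3 had the lowest value of Egln1, Egln3, Bnip3 and Bnip3l in each of the GL7+ DMSO, GL7+ GSK-J4 and CD138+ DMSO groups, that is for 4 of the 9 genes, or 44.4%, where this held for 375 of 10866 genes tested, or 3.45%. Among the glycolytic HIF targets it held for 17 of 22 genes (77.3%), among the other HIF targets for 15 of 28 (53.6%) and among the other 2-oxoglutarate dependent dioxygenases for 8 of 23 (34.8%). It held for 0 of 15 genes of the VHL ligase and HIF1A regulators and for 1 of 18 mitophagy genes. The other HIF targets share genes with the glycolytic targets and with the dioxygenases, so the counts of these lists are not separate. Hif1a did not follow: it was lowest in mouse 2 in all 3 groups, as were 7.82% of all genes. In the naive group mouse 3 was not the lowest library for Egln1, Egln3 or Bnip3l. The pattern was seen in the data and then counted in the same data, with 1 animal, and no test was made of it.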
